A study of Mus musculus with 35 samples.

Results

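The 8 libraries of unstimulated macrophages among the 35 libraries of the series were described on their own, to show how 5 chromatin targets lay relative to each other before any stimulus. They were chosen by their labels, which give no stimulation and time 0, and no list of a stimulated library entered any set used here. All 8 came from bone-marrow-derived macrophages grown from wild type female C57BL/6 mice aged 8 to 12 weeks. ChIP-seq (sequencing of DNA recovered from fixed chromatin with an antibody) was done for p50 (3 libraries, letters A, C and D), p65 (1 library, letter X), acetylated histone H4 (H4ac, 2 libraries, letters A and B), RNA polymerase II (Pol II, 1 library, letter A) and histone H3 trimethylated at lysine 27 (H3K27me3, 1 library, letter A). Nothing in the labels says that libraries of 1 target came from separate animals or cultures, so spreads and p-values measure the difference between libraries, which may be technical. The titles carry dates that no 2 targets share, and only p50 A and C have the same one, so target and date cannot be told apart. No annotation of the build of the lists was at hand, so regions carry no gene names and the macrophage label was not checked against marker genes.

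Histone H4 acetylation neutralises the charge of lysines in the histone tail and is found at open promoters and enhancers, where RNA polymerase II starts or pauses. H3K27me3 is written by the Polycomb repressive complex PRC2, spreads over broad domains and marks silenced genes, among them many developmental regulators. The proteins p50 and p65 are subunits of NF-κB, the main transcription factor of the inflammatory response of macrophages. In resting cells most p65 is held in the cytoplasm by IκB proteins, whereas p50, which has no transactivation domain, can bind DNA as a homodimer.

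The targets differed first in how much of the genome they listed and in how wide their regions were. H4ac A listed 28522 regions and H4ac B 21058. Pol II had 7436 regions and H3K27me3 had 4280. The NF-κB lists were short, with 424, 447 and 354 regions in p50 A, C and D and 255 in p65. The p50 lists averaged 408 ± 48.4 regions (SD, n = 3) and the H4ac lists 24790 ± 5278 (n = 2), a difference of -24382 regions. The groups did not overlap, and 3 lists against 2 cannot go below p = 0.100, which this difference reached (exact two-sided permutation test). The lists hold no read counts, so the depth behind each list is unknown and a region that is not listed is not shown to be unbound.

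Median region widths were 150 bp in each of the 3 p50 lists, 170 bp in p65, 1650 bp in H4ac A, 1810 bp in H4ac B, 1980 bp in Pol II and 31800 bp in H3K27me3. The medians averaged 150 ± 0 bp in the p50 lists (SD, n = 3) and 1730 ± 113 bp in the H4ac lists (n = 2), a difference of -1580 bp (exact two-sided permutation p = 0.100, the smallest possible). Regions of at most 1 kb made up 85.1%, 89.3% and 92.7% of p50 A, C and D and 77.3% of p65, but 29.3% and 26.1% of H4ac A and B and 2.76% of H3K27me3. Pol II mixed narrow and broad regions: 38.8% were at most 1 kb wide and 31.5% were wider than 10 kb. In H3K27me3, 68.3% of regions exceeded 10 kb and 27.4% exceeded 100 kb. The lists were nested, so that a narrow region often lay within a wider one of the same list, from 16.9% of regions in p50 D to 58.8% in H4ac A. The widest regions reached 36.5 to 97.8 Mb. Overlaps were therefore measured on p50, p65 and H4ac regions of at most 10 kb and on Pol II and H3K27me3 regions of at most 100 kb, with overlapping regions of a list joined.

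**Figure D1:**
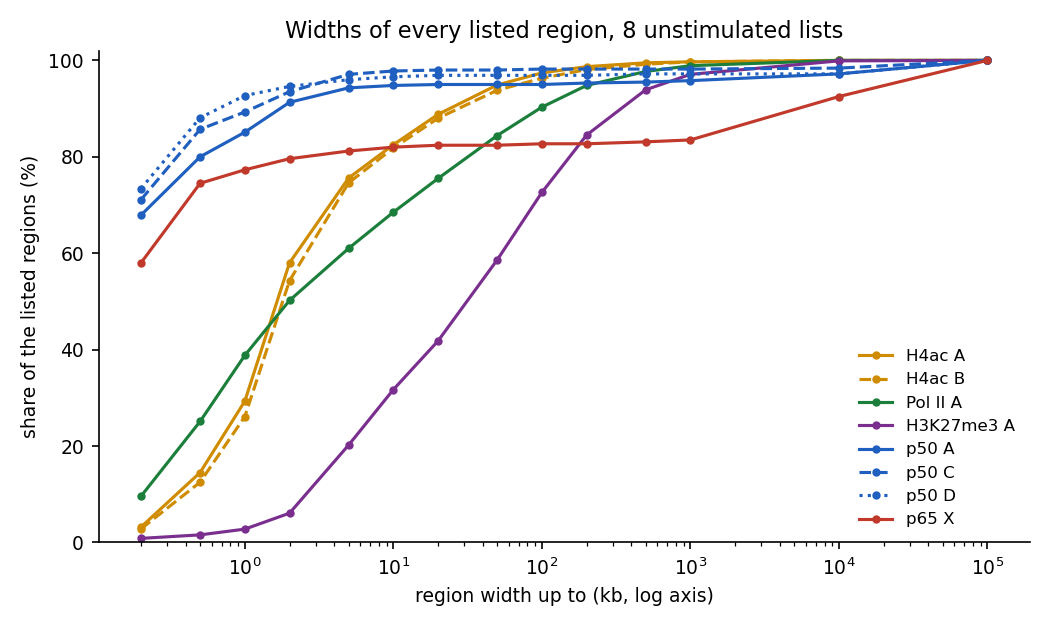
Share of all listed regions (vertical axis, %) up to a given width (horizontal axis, kb, log scale) in the 8 unstimulated lists, 1 line per list. The p50 and p65 lines start high because 77.3% to 92.7% of their regions are at most 1 kb wide, and the H3K27me3 line lies farthest to the right, with a median of 31800 bp.

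Within these limits H4ac A and B covered 44.2 and 34.6 Mb, Pol II 66.8 Mb and H3K27me3 77.7 Mb. The p50 lists covered 0.149, 0.164 and 0.0836 Mb and p65 covered 0.0748 Mb. Regions just above the limits mostly touched a narrower region of their own list in H4ac and Pol II. This held for 84.9% of H4ac A and 78.7% of H4ac B regions of 10 to 100 kb and for 72.9% of Pol II regions of 100 to 1000 kb. Of the 1049 H3K27me3 regions of 100 to 1000 kb, 33.9% did, so most of these broad blocks stood without a narrower H3K27me3 region.

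Pairs of lists of the same target had the higher mean Jaccard index, a measure that also depends on the lengths of both lists. The Jaccard index (base pairs in both lists over base pairs in either) was 0.504 for H4ac A and B. It was 0.211 for p50 A and C, which share a date, 0.0830 for p50 A and D and 0.0785 for p50 C and D. Over the 4 same-target pairs it averaged 0.219 ± 0.200, and over the 24 different-target pairs 0.0102 ± 0.0282 (SD). The difference was 0.209, reached by 2 of the 560 ways to lay the targets over the 8 lists (exact one-sided permutation test, p = 0.00357). The index cannot exceed the ratio of the 2 covered lengths, which is at most 0.00473 in the 16 of 24 different-target pairs that set a p50 or p65 list against H4ac, Pol II or H3K27me3, and at least 0.510 in the same-target pairs. Base pairs shared over the length of the shorter list, which are not limited in this way, averaged 0.389 ± 0.259 in same-target pairs and 0.155 ± 0.132 in different-target pairs (SD), a difference of 0.235 reached by 10 of the 560 ways (exact one-sided permutation test, p = 0.0179). By this measure some pairs of different targets, such as p65 with Pol II at 0.506, lay above the p50 pairs, of which A and C had 0.366. By the Jaccard index the highest different-target pairs were Pol II with H4ac A (0.105) and with H4ac B (0.0974), above the 2 p50 pairs that include p50 D, among pairs whose lengths allow such values. Of the H4ac B regions 94.6% touched H4ac A, and 73.1% of H4ac A regions touched H4ac B. Of p50 C regions 46.1% touched p50 A.

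For each pair of targets, the share of regions that touched the other target by at least 1 bp was set beside the share of all positions on the same chromosomes at which a region of the same width would touch it. Their ratio is called the fold over positions, and it describes these lists without a test. The other target was represented by the 14338 H4ac regions held by both H4ac lists, the 210 p50 regions held by at least 2 of the 3 p50 lists out of 781 in any, and the single lists of Pol II (5079 regions), H3K27me3 (2823) and p65 (204). Intervals are 95% Wilson intervals and cover counting error over regions only.

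Most Pol II regions touched acetylated chromatin. Of the 5079 Pol II regions, 76.5% touched H4ac (3886 regions, interval 75.3 to 77.7%), against 6.77% of positions, a fold of 11.3. In the other direction 28.4% of H4ac A regions and 32.9% of H4ac B regions touched Pol II, against 2.99% and 3.02% of positions. The folds were 9.52 and 10.9, so the 2 H4ac libraries gave close values. Counted in base pairs, 24.7% of H4ac lay in Pol II regions, against 2.53% of the genome, and 15.2% of Pol II lay in H4ac. H4ac covered at least 50% of the length of 2337 of the 5079 Pol II regions. Of the Pol II regions with H4ac, 81.7% touched exactly 1 H4ac region, and the most was 7.

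The better an H4ac region ranked in its lists, the more often it touched Pol II. H4ac regions were ordered by the mean rank of the authors' score in the 2 lists and split into 4 equal groups. From the best to the weakest group 55.8%, 38.0%, 24.5% and 14.0% touched Pol II, with intervals that did not overlap, while 3.15%, 3.13%, 3.13% and 3.12% of positions did. Width differed little along this order, with medians of 2240 bp in the best group and 1840 bp in the weakest. Ordered by Pol II score instead, 78.0%, 79.0%, 78.5% and 70.5% of Pol II regions touched H4ac, against 7.69%, 7.77%, 6.46% and 5.15% of positions. Their median widths were 5110, 4410, 1465 and 800 bp. The folds were 10.1, 10.2, 12.2 and 13.7, so the weakest group had the lowest share and the highest fold. Ordered by Pol II width from narrow to wide, 79.7%, 83.1%, 61.0% and 82.3% touched H4ac, against 1.76%, 2.23%, 5.43% and 17.7% of positions. The folds were 45.3, 37.3, 11.2 and 4.66, falling with width.

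Of the Pol II regions, 1193 (23.5%) touched no H4ac region held by both lists. They were wider than the others, with a median of 3880 bp against 1700 bp in regions with H4ac. Of these 1193, 418 (35.0%) touched an H4ac region of a single list. Of all Pol II regions, with those that touched it included, 85.4% lay within 10 kb of H4ac, against 14.6% of positions. Within 100 kb the share was 99.0%, against 41.3%. As counts, 4338 of the 5079 lay within 10 kb and 3886 touched H4ac, so most of the 1193 lay farther than 10 kb from it.

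**Figure D2:**
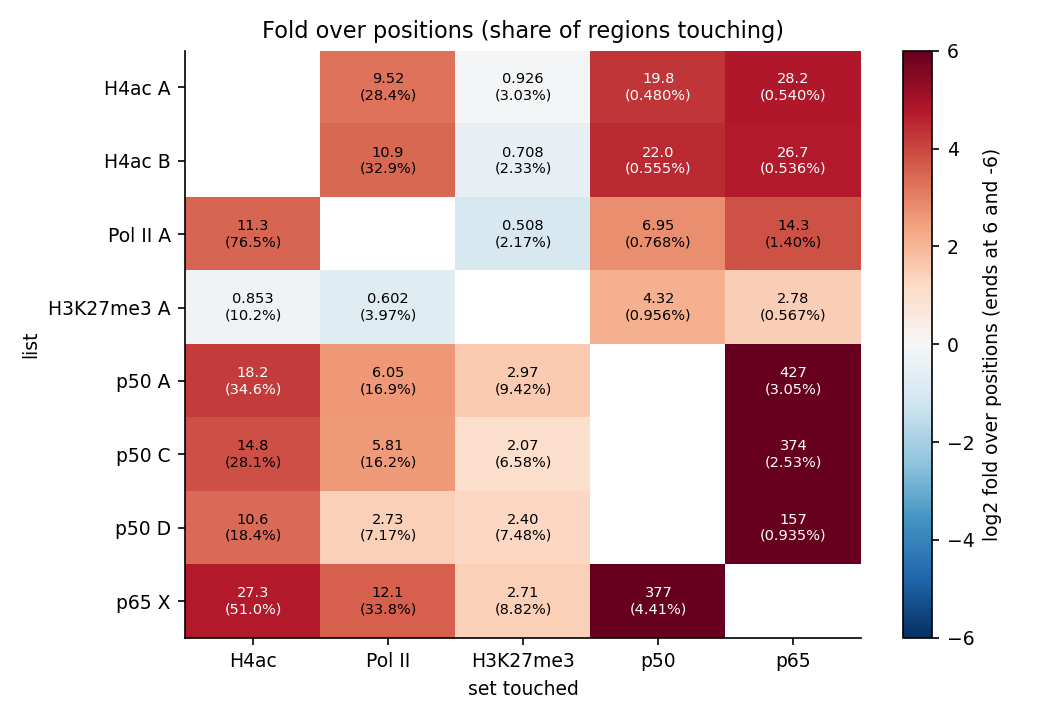
Fold over positions for each list (rows) against each set of another target (columns), as colour on a log2 scale, with the fold and, in brackets, the share of the regions of the list that touch the set. Pol II, p50 and p65 exceed positions for H4ac by 10.6 to 27.3, whereas the pairs of H3K27me3 with H4ac and Pol II lie between 0.508 and 0.926, and the dark cells of p50 with p65 rest on 3 to 11 regions per list.

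H3K27me3 regions up to 100 kb held less H4ac and less Pol II than the genome does. H4ac covered 0.872% of the base pairs inside H3K27me3 and 1.55% of the genome, a fold of 0.561. Pol II covered 0.871% inside and 2.53% of the genome, a fold of 0.344. As regions, 10.2% of H3K27me3 touched H4ac (288 of 2823, interval 9.14 to 11.4%), against 12.0% of positions, and 3.97% touched Pol II (interval 3.31 to 4.75%), against 6.59%. Among H4ac regions 3.03% of A and 2.33% of B touched H3K27me3, against 3.27% and 3.29% of positions, so H4ac A came close to the share of positions. Among Pol II regions 2.17% touched H3K27me3, against 4.26%. These folds below 1 depend on the regions taken: without H4ac B, H3K27me3 touched H4ac at 1.15-fold, and with every listed width the base-pair folds were 1.85 for H4ac and 1.70 for Pol II.

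The size of the H3K27me3 region divided these values. In regions of at most 5 kb (853 regions) H4ac and Pol II base pairs were at 1.00 and 0.839 times the genome share. As regions, 4.92% of them touched H4ac and 4.22% touched Pol II, against 3.14% of positions for each, with folds of 1.57 and 1.34. In regions over 5 and up to 20 kb (928 regions) they were at 0.376 and 0.316 times, in regions up to 50 kb (718) at 0.456 and 0.272 times, and in regions up to 100 kb (598) at 0.637 and 0.369 times. Blocks over 100 kb and up to 1000 kb (1027 regions, 287 Mb) stood above the genome, at 1.54 and 1.26 times, and 60.7% of them touched H4ac, against 42.4% of positions. By base pairs, the values farthest below the genome were thus those of H3K27me3 regions between 5 and 100 kb. As regions, those over 5 and up to 20, 50 and 100 kb touched H4ac at folds over positions of 0.491, 0.717 and 0.976. For Pol II these folds were 0.464, 0.435 and 0.563. Regions over 50 and up to 100 kb thus touched H4ac about as often as positions did, at 23.9% against 24.5%. The score order gave a smaller contrast: the best-ranked group of H3K27me3 touched H4ac in 9.07% of cases and the weakest in 12.3%, against 11.8% and 12.3% of positions.

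The few acetylated regions that touched H3K27me3 mostly lay inside it, as most touching positions do. Of 356 such regions among the 14338 of the set, 273 lay wholly inside, 1.90% of all H4ac regions against 2.80% of positions. The other 83 crossed an edge, 0.579% against 0.560% of positions. H4ac regions inside were thus fewer than by position (a fold of 0.679), and those across an edge were close to it (1.03). Of 110 Pol II regions, 46 lay wholly inside (0.906% against 2.34% of positions) and 64 crossed an edge (1.26% against 1.92%). The share of H4ac regions touching H3K27me3 was 2.04%, 2.01%, 2.57% and 3.32% from the best-ranked to the weakest group, so the weakest group came up to the 3.37% of positions.

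Around H3K27me3 regions up to 100 kb, active marks were mostly denser than in the genome. These surroundings include sequence of the broader H3K27me3 blocks. H4ac covered 2.73% of the sequence within 5 kb outside an H3K27me3 region (1.76 times the genome share), 3.80% between 20 and 50 kb away (2.44 times) and 2.02% between 200 and 500 kb away (1.30 times). Pol II covered 2.45% within 5 kb (0.968 times), 7.71% between 20 and 50 kb (3.05 times) and 3.07% between 200 and 500 kb (1.21 times). By distance, 27.8% of H3K27me3 regions lay within 10 kb of H4ac, against 18.4% of positions, and 78.0% within 100 kb, against 42.6%. At a scale of 1 Mb the marks shared neighbourhoods: of 1160 windows of 1 Mb with H3K27me3, 94.4% held H4ac and 79.1% held Pol II, against 69.9% and 53.3% of all 2629 windows.

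**Figure D3:**
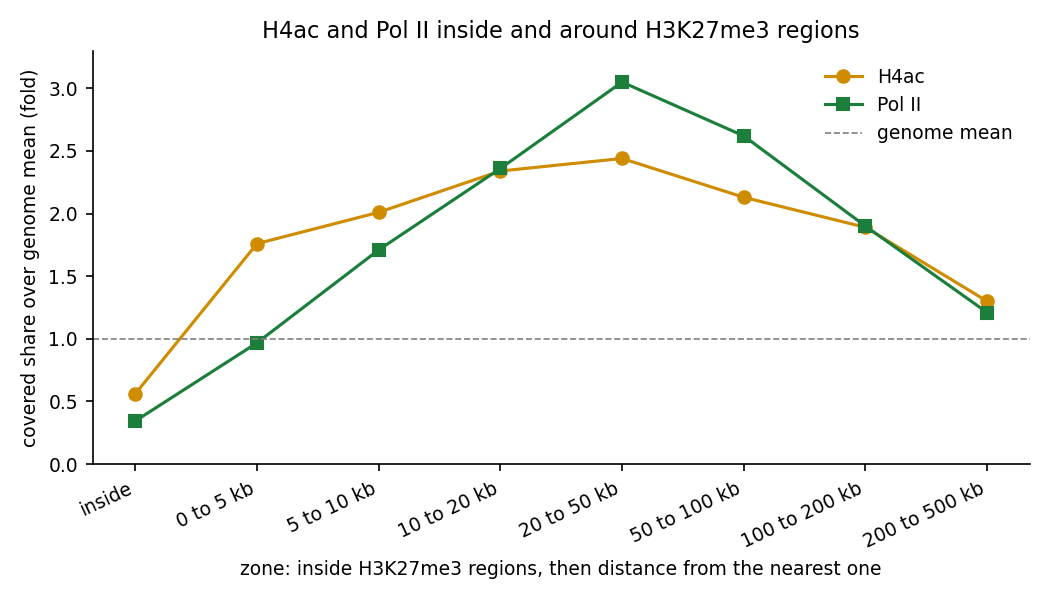
Share of sequence covered by H4ac (circles) and Pol II (squares), divided by its share in the genome (vertical axis, fold), inside H3K27me3 regions up to 100 kb and in zones of growing distance from them (horizontal axis). Both lie below 1 inside (0.561 and 0.344) and peak 20 to 50 kb outside (2.44 and 3.05).

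At rest p50 was found in acetylated chromatin more often than its narrow regions would meet by position, although within the width limits most p50 regions lay elsewhere. In p50 A 34.6% of 361 regions touched H4ac (interval 29.9 to 39.7%), in C 28.1% of 395 and in D 18.4% of 321. The mean was 27.0 ± 8.18% (SD, n = 3), against 1.84% of positions, with a fold of 14.5 ± 3.79. Pol II was touched by 16.9%, 16.2% and 7.17% of p50 A, C and D, a mean of 13.4 ± 5.43% against 2.74% of positions and a fold of 4.86 ± 1.85. H3K27me3 was touched by 9.42%, 6.58% and 7.48%, a mean of 7.83 ± 1.45% against 3.15% of positions and a fold of 2.48 ± 0.456. With every listed width, 55.2% of p50 regions touched H4ac (mean of the 3 lists) at a fold of 1.69, so which side holds most p50 regions depends on the limits. Within them, all 3 libraries stood above positions for all 3 sets, and D was lowest for H4ac and Pol II. None of H4ac, Pol II or H3K27me3 was touched by 53.7%, 62.8% and 73.2% of p50 A, C and D.

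The p50 regions that recurred between libraries were those most often acetylated. Of the 781 merged p50 regions, 571 were held by 1 list, 128 by 2 lists and 82 by all 3. H4ac was touched by 15.1%, 34.4% and 51.2% of them (intervals 12.4 to 18.2%, 26.7 to 43.0% and 40.6 to 61.7%), against 1.73%, 1.97% and 2.51% of positions. Pol II was touched by 8.93%, 18.0% and 22.0%, against 2.63%, 2.84% and 3.06% of positions. H3K27me3 was touched by 5.95%, 8.59% and 12.2%, against 3.06%, 3.24% and 3.36%. Median widths were 140, 190 and 710 bp, and the position shares carry this difference in width. Without chromosomes 4, 13 and 17, where p50 D was dense, the shares with H4ac were 18.2%, 37.4% and 50.7%. Without 4 windows of 1 Mb dense in several lists, the shares with H3K27me3 were 5.11%, 3.64% and 11.4%, against 3.00%, 3.14% and 3.33% of positions. The regions held by 2 lists (4 of 110) then came close to the share of positions. Of the 128 regions in exactly 2 lists, 97 were shared by A and C, 18 by A and D and 13 by C and D.

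Wider p50 regions touched H3K27me3 more often than narrow ones. Among p50 regions of 510 to 10000 bp, 29.5% of A (18 of 61), 18.5% of C (10 of 54) and 16.7% of D (4 of 24) touched H3K27me3, against 3.60%, 3.43% and 3.04% of positions. Among those of 100 to 150 bp the shares were 5.18%, 3.27% and 4.97%, against 3.03%, 3.09% and 3.10%. Seen from the other side, 16 of the 853 H3K27me3 regions of at most 5 kb touched a p50 region (1.88%, against 0.0310% of positions). Of the 21 regions of the p50 set that touched H3K27me3, 11 crossed its edge (5.24% of 210, against 0.178% of positions) and 10 lay wholly inside (4.76%, against 3.11%). Part of this came from the same 4 dense windows: without them the shares of the wider p50 regions were 20.5%, 18.6% and 15.0%, 5 of 798 small H3K27me3 regions touched p50 (0.627%, against 0.0319% of positions), and 4 of 189 p50 regions crossed an edge (2.12%).

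**Figure D4:**
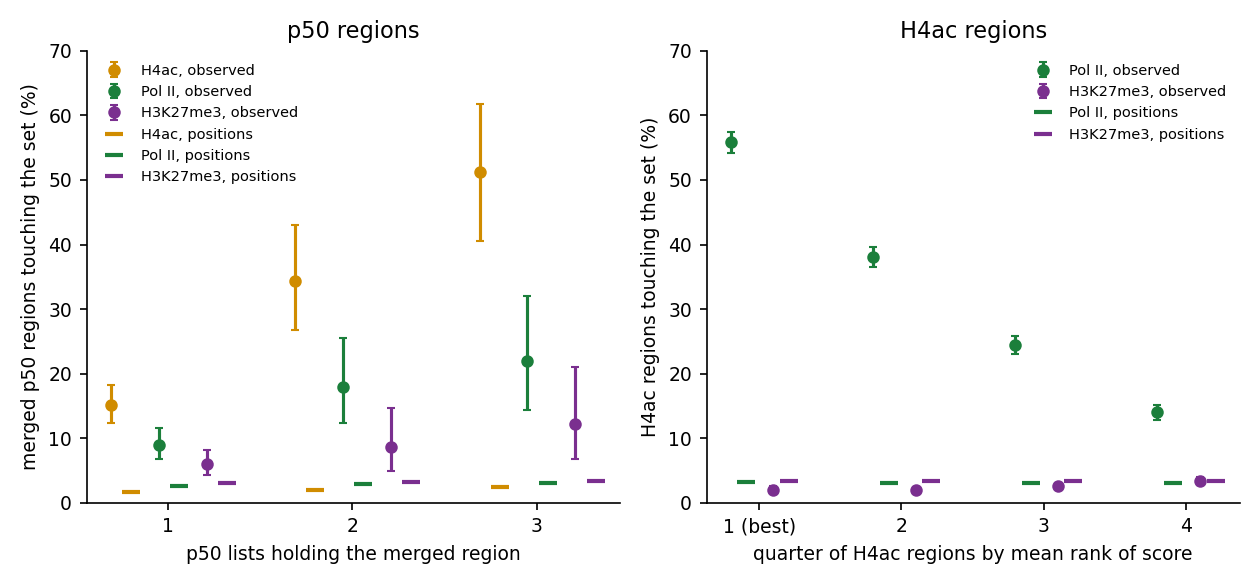
Left, share of merged p50 regions (vertical axis, %) touching H4ac, Pol II and H3K27me3, by the number of p50 lists that hold them. Right, share of H4ac regions touching Pol II and H3K27me3, by group of H4ac rank, with points for observed shares, bars for 95% Wilson intervals and dashes for the share of positions. The share of p50 regions touching H4ac is 51.2% in those of all 3 lists and 15.1% in those of 1 list, and the share of H4ac regions touching Pol II is 55.8% in the best-ranked group and 14.0% in the weakest.

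Of the NF-κB lists, p65 had the highest share of regions in acetylated chromatin. H4ac was touched by 51.0% of its 204 regions (104 regions, interval 44.2 to 57.8%), against 1.87% of positions, a fold of 27.3. Pol II was touched by 33.8% (interval 27.7 to 40.6%), against 2.80%, and H3K27me3 by 8.82% (interval 5.65 to 13.5%), against 3.25%. The share that touched none of the 3 was 37.3%, below 53.7% to 73.2% in the p50 lists. There is only 1 p65 library and it has its own date, so no test of p65 against p50 was made.

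The p50 and p65 lists of resting cells had few regions in common, though more than these short lists would share by position. Of 204 p65 regions 9 (4.41%, interval 2.34 to 8.17%) touched the p50 set, against 0.0117% of positions, a fold of 377. From the p50 side 11, 10 and 3 regions of A, C and D (3.05%, 2.53% and 0.935%) touched p65, at folds of 427, 374 and 157. Of the 9 regions, 3 touched H4ac, 1 Pol II, 4 H3K27me3 and 3 none of these. Without p50 A 1 of 204 p65 regions touched the p50 set (a fold of 92.6), without p50 C 4 did (373) and without p50 D 7 (339). With a list left out, the p50 set was stricter, as it kept only regions held by both remaining lists. Without the 4 dense windows 4 of 176 p65 regions touched the p50 set (244). The best-ranked p65 region lay on chromosome 5 at 69946631 to 69948190 (mm9). Within the width limits it was in both H4ac lists and in Pol II and in no p50 list. The second had the same combination and lay on chromosome 4 at 138935211 to 138936530. The third, also with H4ac and Pol II and without p50, was found on chromosome 13 between 46822411 and 46823670.

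Seen from H4ac regions within the width limits, most touched no other target. Of 14338 H4ac regions held by both lists, 64.3% touched none of the other 4 targets, 33.1% touched Pol II (4744), 2.48% H3K27me3 (356), 0.732% p65 (105) and 0.607% p50 (87). The 105 regions with p65 had Pol II in 62 cases, and the 87 regions with p50 had it in 40. With every listed width, a mean of 56.6% of the regions of the 2 H4ac lists touched Pol II and 38.4% touched H3K27me3, so the majority without another target depends on the limits. Within them, 3 of the 87 regions with p50 also touched p65, against 0.732% of all H4ac regions. Pol II was touched by 72 of the 356 regions with H3K27me3, a lower share than the 33.1% of all H4ac regions. A single H4ac region touched all other 4 targets, on chromosome X at 166427301 to 166429830. It lies in a window of 1 Mb, from 166 to 167 Mb, that was dense in several lists.

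Single sites, read in the lists within the width limits, showed these combinations. The H4ac region ranked 1 in both lists lay on chromosome X at 166415781 to 166420100. It was also listed in Pol II (rank 471) and in H3K27me3 (rank 305), which covered 47.9% of it. Its neighbours at 166410571 to 166415690 and 166434731 to 166435870 had Pol II and H3K27me3 as well, and these 3 were the best-ranked H4ac regions with both. All 3 lie in the same dense window, which held 36 regions of H4ac A, 15 of Pol II and 22 of H3K27me3. The best-ranked Pol II region, on chromosome 5 at 143662851 to 143668400, was 79.8% covered by H4ac. The next, on chromosome 19 at 10057091 to 10061970, was in neither H4ac list and was 88.1% covered by a p65 region of low rank (164). Among joined H4ac regions built from pieces of at most 10 kb and held by both lists, the widest, of 27250 bp on chromosome 9 at 37036851 to 37064100, was 96.5% covered by Pol II.

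The 2 best-ranked H3K27me3 regions lay on chromosome 7 (151571581 to 151660890, 89310 bp) and chromosome 6 (52158091 to 52227030, 68940 bp). Both were in no other list within the width limits. The third, of 82810 bp on chromosome 8 at 114198861 to 114281670, held a p50 region of 2210 bp at 114248031 to 114250240. That p50 region ranked 1, 5 and 8 in p50 A, C and D and was, within the same limits, in neither H4ac list nor in Pol II. Of the 5 p50 regions with the best mean rank, the best lay on chromosome 12 (55465371 to 55470560) and the second on chromosome 1 (163278381 to 163281320). Both were in no list of another target within the width limits. The fourth, on chromosome 5 at 31393611 to 31398120, lay in H3K27me3, and the fifth, on chromosome 7 at 31894791 to 31896330, had 32.5% of its length in an H4ac region held by both libraries, over a stretch listed by H4ac A alone. The other 4 touched no H4ac region held by both libraries.

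Of the p50 regions that touched both H4ac and Pol II, the 5 with the best p50 ranks are given here. The first lay on chromosome 7 at 3289661 to 3290730, with ranks 4, 15 and 11 in p50 A, C and D. A region of 5060 bp on chromosome 19 (46375101 to 46380160) ranked 20, 13 and 19. Another on chromosome 6 (116617861 to 116619280) ranked 7, 41 and 24, and 100% of it lay in H4ac and in Pol II. The region on chromosome 17 (35512861 to 35516730) ranked 17, 23 and 71 and was covered by H4ac over 4.91% of its length. The fifth, on chromosome 1 (135988631 to 135990680), had the best H4ac ranks of the 5, at 110 in A and 306 in B.

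Counted as regions within the width limits, H4ac, Pol II and H3K27me3 were densest on chromosome 11 and sparsest on chromosome X. Relative to the genome mean of each list, regions per Mb on chromosome 11 were at 1.51 and 1.53 in H4ac A and B, 1.50 in Pol II and 1.58 in H3K27me3. Chromosome 19 came next in these 4 lists, at 1.31, 1.24, 1.30 and 1.33. Chromosome X was at 0.511 and 0.459 in H4ac A and B, 0.455 in Pol II and 0.309 in H3K27me3. Counted as regions of every listed width, the same 4 lists were again highest on chromosome 11, at 1.45, 1.48, 1.53 and 1.38, and lowest on X, at 0.523, 0.471, 0.477 and 0.492. Counted as covered base pairs within the limits, they were at 1.49, 1.49, 1.64 and 1.50 on chromosome 11 and at 0.471, 0.420, 0.389 and 0.332 on X. Covered base pairs of every listed width gave another picture in these 4 lists. X was covered to 63.3% by H4ac A and to 56.2% by H3K27me3, at 2.79 and 2.15 times their genome shares. The widest single regions of these 2 lists were 97.8 and 70.9 Mb, and no other chromosome had that much sequence covered. In H4ac B X was at 0.685 times, and the highest was chromosome 1 (2.01) and the lowest 19 (0.500). In Pol II X was at 0.780 times, and the highest was chromosome 13 (2.58) and the lowest 14 (0.542). Chromosome 11 was at 1.43, 1.25, 1.08 and 0.775 times in H4ac A, H4ac B, Pol II and H3K27me3. By region count within the limits, the density of H3K27me3 had a Spearman correlation of 0.680 with H4ac A, 0.750 with H4ac B and 0.785 with Pol II over 20 chromosomes. The points share the composition and the length of each chromosome, and the correlations are given without a test.

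The NF-κB lists were more uneven. Chromosome 11 was at 2.70 in p50 A, 2.47 in p50 C and 2.97 in p65, the top place in each. These values rested on 1 window of 1 Mb: without the dense windows they were 1.36, 1.40 and 1.24, against 1.49 and 1.50 in H4ac A and B and 1.50 in Pol II, where chromosome 11 kept the first place. H3K27me3 lost 35 of its 206 regions there and fell to 1.35, the second place, so its first place rested on that window. In p50 D chromosome 17 led at 4.14, before chromosomes 13 at 2.94 and 4 at 2.64. Chromosome X was at 0.483, 0.561 and 1.09 in p50 A, C and D and at 0.543 in p65, with p50 D the highest of the lists there.

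**Figure D5:**
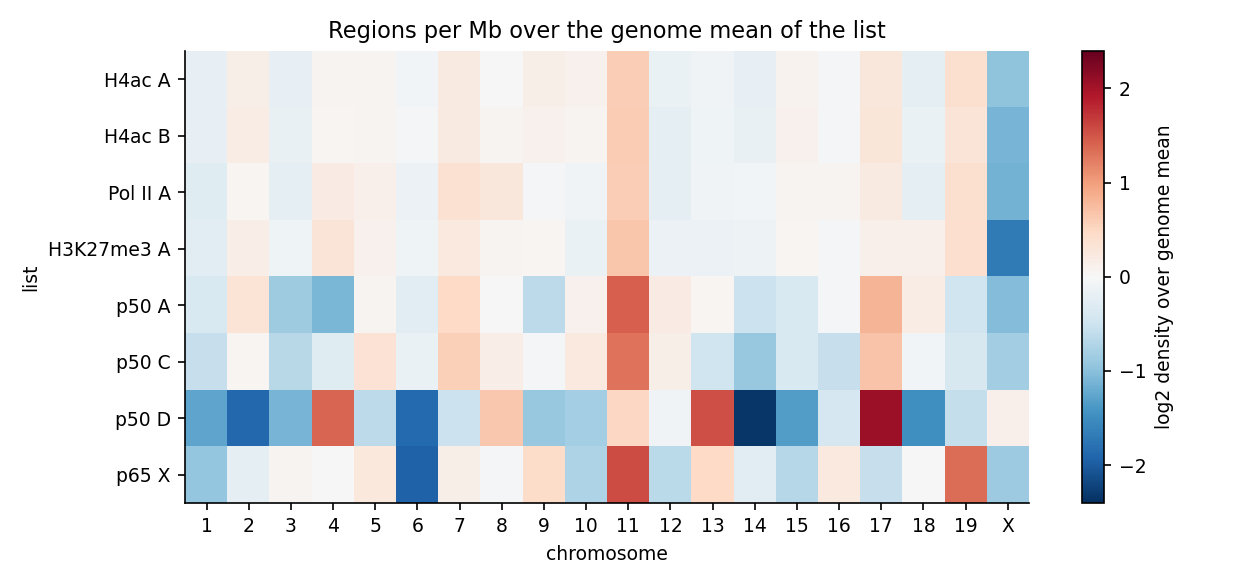
Regions per Mb on each chromosome (columns) divided by the genome mean of the list (rows), as colour on a log2 scale, for regions within the width limits. Chromosome 11 is high in 7 of the lists at 1.50 to 2.97, chromosome X is low at 0.309 to 0.561 in the same lists, and p50 D stands apart with 4.14 on chromosome 17. The p50 and p65 values on chromosome 11 include a dense window, without which they are 0.988 to 1.40, and the H3K27me3 value is then 1.35.

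Chromosomes 4, 13 and 17 held 43.9% of the p50 D regions (141 of 321) and 13.9% of the regions of p50 A and of C, against 14.1% of the genome. The D regions on these chromosomes touched H4ac in 6.38% of cases (9 of 141, interval 3.39 to 11.7%), against 27.8% (50 of 180, interval 21.8 to 34.7%) on the other chromosomes. The shares of positions were 1.79% and 1.68%, so both groups stood above positions, at folds of 3.56 and 16.5. The D regions on chromosomes 4, 13 and 17 were in another p50 list in 13.5% of cases, against 52.2% on the other chromosomes, and spread over 113 windows of 1 Mb. The 3 chromosomes were chosen after the lists had been seen, because p50 D was dense there. A low share in another p50 list follows in part from that choice and is no separate result. The H4ac share of the D regions there rests on the same choice. In p50 A the shares touching H4ac were 28.0% on these chromosomes and 35.7% on the others, and in C 23.6% and 28.8%. Without the 3 chromosomes the fold of p50 over positions was 16.8 for H4ac and 3.08 for H3K27me3.

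A few places held many regions of several lists. The windows of 1 Mb on chromosome 11 from 3 to 4 Mb, chromosome 17 from 39 to 40 Mb, chromosome 9 from 3 to 4 Mb and chromosome X from 166 to 167 Mb make up 0.152% of the genome. They held 11.4%, 9.62% and 3.74% of p50 A, C and D, 13.7% of p65 and 2.02% of H3K27me3, but 0.342% and 0.430% of H4ac A and B and 0.374% of Pol II. The window on chromosome 11 alone held 25, 22 and 7 regions of p50 A, C and D, 18 of p65 and 35 of H3K27me3. Of the 9 p65 regions that touched the p50 set, 4 lay in that window and 1 in the window on chromosome X. Without the 4 windows the fold over positions was 16.0 for p50 with H4ac, 2.06 for p50 with H3K27me3 and 30.9 for p65 with H4ac. The windows were chosen after the lists had been seen, and what sets them apart was not tested.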

How the data were processed

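Regions came from the lists deposited for the 8 unstimulated libraries, each giving a position, a scale number and a score. The authors deposited the score, whose scale is unknown, and it was used for ranks alone. Positions are 1-based on mm9, the build in the submitters' processing notes. How reads were aligned and regions called is not given in the sources used here. The 27 lists of stimulated cells were left out. Chromosomes 1 to 19 and X were used, with lengths from GenomeInfoDb 1.38.1 (R 4.3.3), in Python 3.11.15 with numpy 2.4.6.

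Functions were tested on simulated data. Members and settings were chosen with earlier results of these data known. Named sites are the 3 best mean ranks per target held by every list (5 for p50), the widest, the 5 best p50 regions with H4ac and Pol II, and the 3 best H4ac regions with H3K27me3 and Pol II. Promoters of gene lists and sequences were not analysed here for lack of an mm9 reference. Alternatives were other width limits, the better-scored 50% of lists, at least 50% of a region covered (positions every 1 kb), base pairs shared over the shorter list, and leaving out each replicate, chromosome X, dense windows, chromosomes 4, 13 and 17, or the first 3 Mb of chromosomes.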

Additional observations from a re-analysis of the deposited data

Results flagged for a closer look

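Chromosome Y was outside the comparisons, and the mice were female by the labels. Regions on chromosome Y were listed 4 times among 21058 in H4ac B, 9 among 424 in p50 A and 12 among 354 in p50 D. Counts above 3 were flagged, a fixed limit that takes no account of the length of a list. p50 C listed 3 among 447, H3K27me3 2 among 4280 and H4ac A, Pol II and p65 none. The cause was not tested.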

How the results depend on the processing

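Of 128 values of the main results under alternatives, 119 kept their side of 1 or their direction, and of 91 values of the other pairs and shared base pairs 75 did. The 9 main values that turned were all of H3K27me3 with H4ac or with Pol II. The 128 also count settings equal to the main one, such as regions up to 10 kb for p50 and p65 with H4ac. With every listed width, the fold over positions was 1.69 for p50 with H4ac, 1.78 for p50 with Pol II, 1.58 for p50 with H3K27me3, 2.83 for Pol II with H4ac and 1.57 for p65 with H4ac. With regions up to 1 kb these were 22.9, 30.0, 474, 119 and 81.2. Few regions lay behind most of them: 24, 23 and 17 of 1050 p50 regions, 413 of 2845 Pol II regions and 16 of 195 p65 regions. With regions up to 10 kb, p50 with Pol II was at 14.9, p50 with H3K27me3 at 12.1 and Pol II with H4ac at 28.2. In the better-scored 50% of lists the 5 pairs were at 25.3, 8.39, 3.22, 19.1 and 38.2. The shares touching were lower than in the main setting, at 25.3%, 10.8%, 5.33%, 67.6% and 38.0%. The main shares were 27.0%, 13.4%, 7.83%, 76.5% and 51.0%. The sets touched were cut in the same way, so fewer positions touched them and the folds rose while the shares fell. With at least 50% of the region covered, p50 with H3K27me3 was at 1.99 and Pol II with H4ac at 42.5. Pol II with H4ac was at 11.1 without chromosome X and 11.0 without the first 3 Mb of chromosomes, and p50 with H3K27me3 was at 3.08 without chromosomes 4, 13 and 17 and 1.88 with H3K27me3 up to 1 Mb.

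The pairs of H3K27me3 with active marks crossed 1. H3K27me3 with H4ac (0.853) was at 1.48 with every width, 59.7 up to 1 kb, 1.04 up to 10 kb, 2.01 with at least 50% covered, 1.17 with H3K27me3 up to 1 Mb and 0.508 in the better-scored 50%. H3K27me3 with Pol II (0.602) was at 1.48 with every width, 34.3 up to 1 kb, 1.73 up to 10 kb, 0.969 with H3K27me3 up to 1 Mb, 0.445 in the better-scored 50% and 0.498 without chromosome X. From the other side, H4ac with H3K27me3 was at 1.46, 63.9 and 1.33 with every width, up to 1 kb and up to 10 kb and at 1.42 with H3K27me3 up to 1 Mb, and Pol II with H3K27me3 at 1.44, 35.8, 1.35 and 1.18. The base-pair folds turned in the same way, for H4ac to 1.85 with every width, 57.5 up to 1 kb and 1.36 with H3K27me3 up to 1 Mb, and for Pol II to 1.70, 39.6 and 1.09, and to 1.26 up to 10 kb. p65 with H3K27me3 fell to 0.979 in the better-scored 50% (2 of 121 regions). The folds of H3K27me3 up to 1 kb rested on few regions, 9 of 117 with H4ac and 4 of 117 with Pol II. From the other side they rested on 36 of 13766 H4ac regions and 4 of 2845 Pol II regions. The causes were not tested.

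Leaving out each replicate gave 12.7 to 16.5 for p50 with H4ac, 4.27 to 5.93 for p50 with Pol II, 2.24 to 2.69 for p50 with H3K27me3, 10.0 to 11.5 for Pol II with H4ac, 0.829 to 1.15 for H3K27me3 with H4ac, 25.7 to 27.3 for p65 with H4ac and 0.116 to 0.345 for list similarity. The density on chromosome X was 0.459 to 0.511 for H4ac and 0.522 to 0.823 for p50, and that of H3K27me3 was 0.492 with every width. Covered base pairs per Mb of H4ac on X were at 0.445. The share of H4ac regions touching Pol II (33.1%) was 14.8% up to 1 kb, a mean of 56.6% over the 2 lists with every listed width, and 28.4% to 32.9% without either H4ac list. List similarity kept its side of 0.05 under all its alternatives, with exact permutation p from 0.00179 to 0.0286. No paired analysis was possible because no 2 targets share more than 1 replicate letter. The unknown depth limits every count of regions.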
